A study of Homo sapiens with 3 samples.

Results

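Expression of 10 drug and aldehyde detoxification genes was followed in KYSE140 cells exposed to cisplatin: the aldo-keto reductases AKR1B1, AKR1B10, AKR1C1, AKR1C2 and AKR1C3, the glutathione transferases GSTP1, GSTM3, GSTO1 and MGST1, and the glutathione peroxidase GPX2. The genes were chosen by function, and each was read from the probe sets whose platform annotation gives it as the 1 gene symbol. This found 9 of the 10 genes, with 22 probe sets, among 19775 genes and 41091 such probe sets in all. AKR1B1 had no probe set of that kind and was not analysed here. KYSE140 is a human cell line established from a squamous cell carcinoma of the oesophagus. The cisplatin group was exposed to the platinum drug for 12 h at a labelled concentration of 10 mM (2 arrays, titled B1 and B2), and the untreated group (1 array) was left without drug; both were grown in RPMI medium with serum. The concentration is printed as labelled, although cell culture work with this drug generally uses micromolar doses. Whether B1 and B2 are separate cultures is not stated, and the spread between them may be technical.

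Aldo-keto reductases use NADPH to turn reactive aldehydes and ketones, steroids and prostaglandins among them, into alcohols. Glutathione transferases join the thiol of glutathione to electrophiles, and glutathione peroxidases spend glutathione to reduce peroxides. Platinum drugs bind thiols, and several of these genes are known targets of NRF2, the transcription factor of the antioxidant response, which binds antioxidant response elements in the DNA.

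Promoters are shown for the AKR1C genes, because they are near copies of each other, and for the genes that carry the core of the antioxidant response element (TGACNNNGC, searched on both strands) close to an annotated start. Over the 250 bases before the starts used, AKR1C1 and AKR1C2 were identical at 245 of 246 aligned positions (99.6%). AKR1C3 shared 74.0% with AKR1C1 at its first annotated start and 73.6% at its second. The AKR1C2 start used, at 5003857, lies inside the annotated gene (4987775 to 5018000, minus strand), so it is not the outermost start of AKR1C2. The stretches below end at the base before the transcript start (RefSeq, GRCh38.p14), run 5′ to 3′ on the gene's strand, and have the element core in capitals.
AKR1C1, chr10:4963285-4963414, plus strand: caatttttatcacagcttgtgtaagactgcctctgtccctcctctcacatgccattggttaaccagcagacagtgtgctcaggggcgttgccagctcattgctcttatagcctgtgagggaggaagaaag
AKR1C2, chr10:5003858-5003987, minus strand: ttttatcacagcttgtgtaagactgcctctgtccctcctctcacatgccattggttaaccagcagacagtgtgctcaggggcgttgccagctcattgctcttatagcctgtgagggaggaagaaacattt
AKR1C3, first start, chr10:5048651-5048780, plus strand: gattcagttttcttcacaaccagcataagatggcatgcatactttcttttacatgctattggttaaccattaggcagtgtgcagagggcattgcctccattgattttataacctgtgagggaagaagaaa
AKR1C3, second start, chr10:5094284-5094413, plus strand: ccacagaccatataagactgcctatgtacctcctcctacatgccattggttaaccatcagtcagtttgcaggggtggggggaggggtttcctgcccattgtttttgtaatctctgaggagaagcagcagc
GSTP1, chr11:67583682-67583811, plus strand: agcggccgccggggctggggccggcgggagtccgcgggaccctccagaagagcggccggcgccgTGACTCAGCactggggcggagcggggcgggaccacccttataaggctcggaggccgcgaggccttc
GSTO1, chr10:104254662-104254891, plus strand: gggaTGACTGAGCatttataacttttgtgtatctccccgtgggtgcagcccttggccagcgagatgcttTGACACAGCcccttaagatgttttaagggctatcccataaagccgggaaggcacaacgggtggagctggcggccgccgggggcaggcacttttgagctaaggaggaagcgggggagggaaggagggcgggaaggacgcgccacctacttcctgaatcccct
GPX2, chr14:64942746-64942875, minus strand: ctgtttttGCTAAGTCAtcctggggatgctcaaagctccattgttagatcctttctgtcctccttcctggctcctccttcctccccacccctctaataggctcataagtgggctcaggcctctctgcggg

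RefSeq gave 13 start windows for 9 of the 10 genes and no window for AKR1B10. Within 250 bases upstream of a start used, 3 genes held the core: GSTP1 (1 match), GSTO1 (2 matches) and GPX2 (1 match, on the opposite strand). The GSTO1 window precedes a start at 104254892, whereas the annotated gene begins at 104254173, so both GSTO1 matches lie inside the gene. Of 27305 genes with a window 13.2% held it, and of their 35116 windows 10.9% did. The GSTP1 match also contains the AP-1 letters TGACTCA, which overlap it and which 5.19% of genes and 4.20% of windows held. None of the 4 AKR1C windows held the core, which says only that these letters are not in these windows.

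The deposited values are 1 intensity per probe set on a linear scale, and differences below are of their log2 values, B1 or B2 minus the untreated array. The median intensity of all probe sets was 35.9 in B1, 35.6 in B2 and 34.8 in the untreated array. B2 stood apart from the other arrays: the SD of the log2 difference across genes was 0.33 for B1 minus untreated, 0.60 for B2 minus untreated and 0.56 for B2 minus B1, so the results below are given for each cisplatin array. Of the 12 squamous epithelial markers 9 were measured, and all had a mean log2 value of at least 6. Their summed intensity was 18139 in B1, 30084 in B2 and 21450.4 in the untreated array. In B2, 4 of the 9 were higher by at least 2-fold and none was lower by 2-fold. In the same order of arrays, the basal keratin KRT14 was at 276, 2372 and 278, and KRT5 at 1345, 4251 and 1217. DSC3 was at 434, 1125 and 359, and DSG3 at 321, 790.1 and 375. The transcription factor gene SOX2, at 2416, 5308 and 5656, was the 1 marker past 2-fold in B1, where it was lower (-1.23, and -0.09 in B2). EPCAM differed by -0.01 in B1 and -0.12 in B2. Of the markers of other cell types, 8 of 10 for fibroblasts, 8 of 8 measured for leukocytes and 8 of 8 for endothelium lay below a mean log2 value of 6. Of all 19775 genes 9566 did. Summed intensities in B1, B2 and untreated were 394, 487 and 363 (fibroblasts), 211, 201 and 193 (leukocytes) and 183, 178 and 157 (endothelium). The fibroblast markers above 6 were COL1A1, at 155, 159 and 122, and THY1, at 61.6, 143.9 and 59.5. THY1 thus passed 2-fold in B2 (1.28). No listed marker was at 0, since no value in the table was. The part of B2's overall difference in the results below was not tested.

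Of the 9 measured genes, GSTM3 and AKR1C3 differed most from the untreated array, both in B2. By the brightest probe set of each gene, AKR1B10, GSTP1 and GPX2 were higher in both cisplatin arrays (3 of 9), AKR1C2 and AKR1C3 were lower in both (2 of 9), and AKR1C1, GSTM3, GSTO1 and MGST1 lay on opposite sides of the untreated value in B1 and B2 (4 of 9). Among all 19775 genes, 39.2% were higher in both arrays, 27.4% lower in both and 33.0% on opposite sides, so the members' counts were near this background. No member differed by at least 2-fold in both arrays, against 0.819% of all genes. GSTM3 alone passed 2-fold in B2, where 7.49% of all genes did (2.99% of all genes upwards, as GSTM3), and no member did in B1, where 1.75% of all genes did. Above a mean log2 value of 6, which 8 of the 9 genes reached, 29.8% of genes exceeded the untreated value in both arrays and 34.2% lay below it in both. The median log2 difference of the 9 genes was -0.05 in B1 and 0.19 in B2, beside 0.03 and 0.05 over all genes. In such bulk RNA, fewer cells that express a gene and less of its RNA per cell cannot be told apart.

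None of the 9 genes passed the limma test at an adjusted p of 0.05 (Benjamini-Hochberg over all genes; adjusted p from 0.969 to 0.996), as none of all 19775 genes did (0.0%), while 565 genes (2.86%) and none of the members had an unadjusted p under 0.05. With 1 untreated array and 1 residual degree of freedom, the count of 0 says nothing about the size of the differences. An exact permutation test over the 3 arrays cannot give a two-sided p below 0.333.

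**Figure D1:**
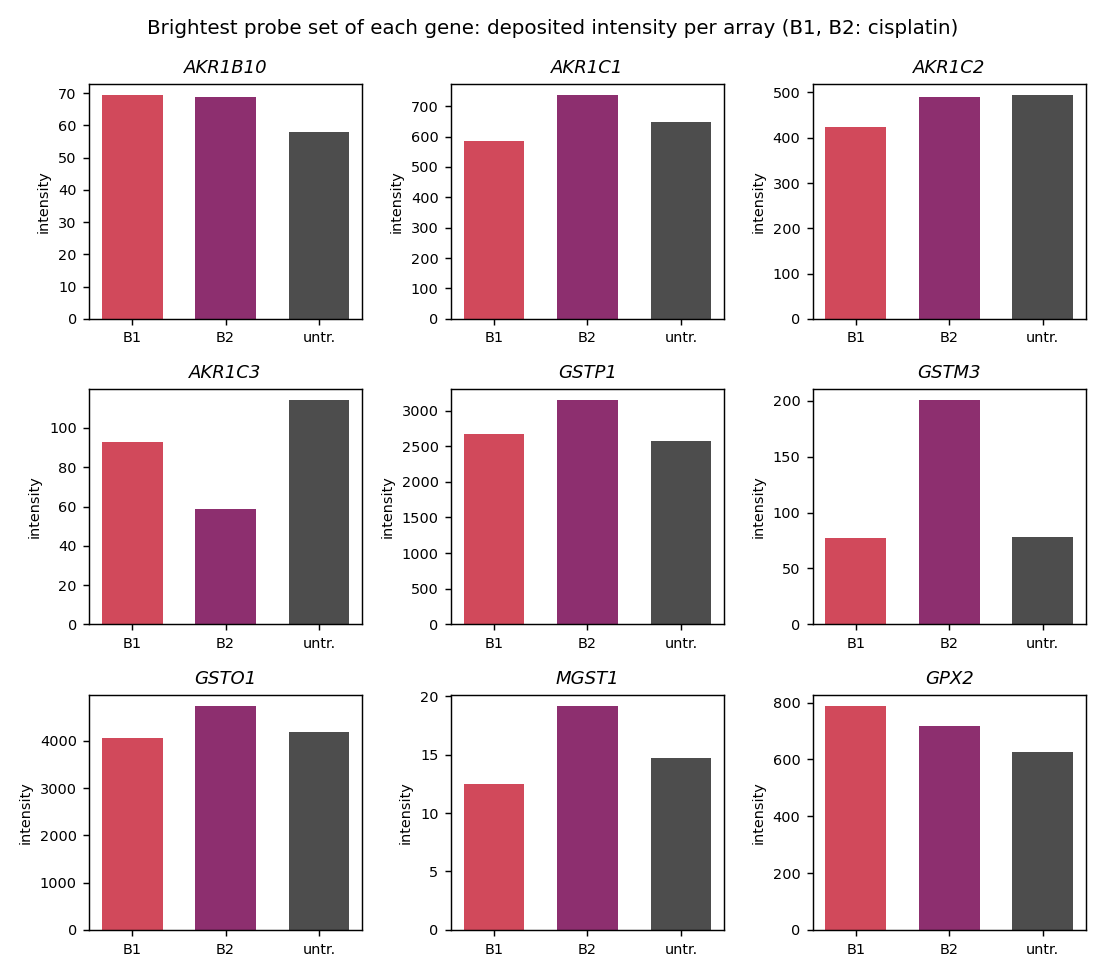
Deposited intensity (linear axis from 0) of the brightest probe set of each of the 9 measured genes, with 1 bar per array: cisplatin B1, cisplatin B2 and untreated (untr.). GSTM3 stands out in B2 and is the only gene to pass 2-fold. AKR1C3 is lowest in B2 but, at a log2 difference of -0.95, stays under 2-fold, as the other genes do. Axes differ between panels, and levels of different probe sets are not comparable.

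The AKR1C genes are neighbours on chromosome 10, and the signals of AKR1C1 and AKR1C2 resembled each other. AKR1C1, which reduces progesterone to a weaker hormone, had intensities of 585 in B1 and 737 in B2, against 649 in the untreated array (log2 differences -0.15 and 0.19). The untreated value lay between the cisplatin values. AKR1C2, which inactivates dihydrotestosterone, was at 424 in B1 and 490.2 in B2, against 495 in the untreated array (-0.22 and -0.01). It was lower in B1, and in B2 it nearly matched the untreated array. The probe sets behind these values carry the suffix _x_at, by which the manufacturer marks probes that also match other sequences, so signal of AKR1C1 and AKR1C2 cannot be told apart here.

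The other bright _x_at probe sets of the pair had the arrays in a similar order. The second of AKR1C1 was at 311 in B1 and 365 in B2, against 349 in the untreated array, and the second of AKR1C2 at 213 and 256, against 269. All 4 were lower in B1 than in the untreated array, by 0.15 to 0.34 on the log2 scale, and all 4 were higher in B2 than in B1. The remaining 3 probe sets of AKR1C1 and 1 of AKR1C2 were dim, with intensities of at most 35.1 on any array, and their differences ran from -0.15 to 0.48.

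AKR1C3, which reduces androgen precursors and prostaglandins, had the largest negative difference of the 9 genes. Its only probe set was at 92.9 in B1 and 59.0 in B2, against 114 in the untreated array, for log2 differences of -0.30 and -0.95. The B2 value exceeded 56.2% of the probe sets with 1 symbol, so it lay not far above the middle of that array. Both cisplatin values were below the untreated one, on average 0.649-fold of it (log2 -0.62, SE 0.38, limma adjusted p = 0.969). In B2, 4.94% of all genes were at least as far below the untreated array, and in B1 13.1% were. AKR1C3 extends over 58.9 kb from its first annotated start to its end and over 13.3 kb from its second. The 2210 genes whose mean log2 value was 6 or more and whose span lay within 1.5-fold of the longer one had median differences of -0.12 in B1 and -0.11 in B2, and 48.2% of them were lower in both arrays. The part of gene length in the AKR1C3 values was not tested.

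AKR1B10, a retinal and aldehyde reductase abundant in gut epithelium, was at 69.4 in B1 and 68.8 in B2, against 57.9 in the untreated array. These values exceeded 59.8%, 59.4% and 55.6% of the probe sets with 1 symbol, so they lay not far above the middle of each array. The cisplatin arrays differed by an SD of 0.0087 on the log2 scale, the closest pair of the 9 genes, and both were higher, 1.19-fold on average (log2 0.26, SE 0.18, limma adjusted p = 0.969). A difference at least as high was seen in 15.7% of all genes in B1 and in 28.2% in B2.

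**Figure D2:**
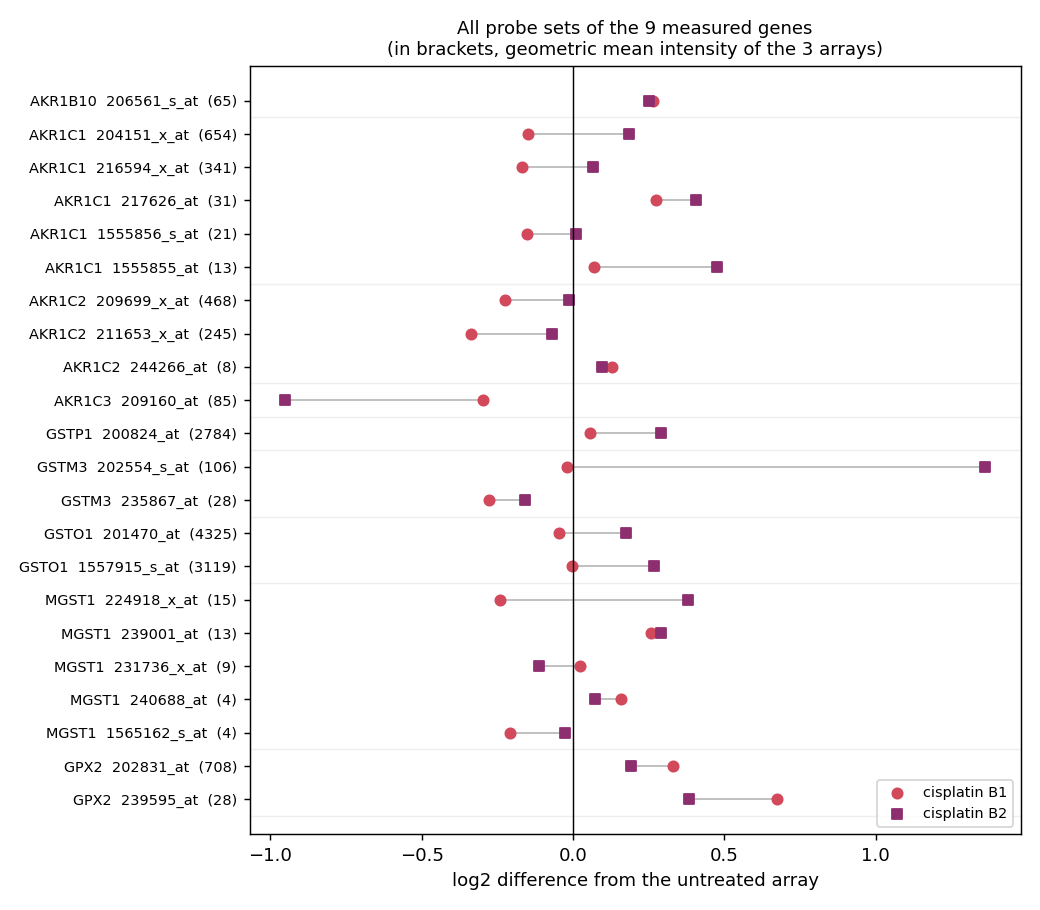
Log2 difference from the untreated array for each of the 22 probe sets, with cisplatin B1 as circles and cisplatin B2 as squares joined by a line; the geometric mean intensity over the 3 arrays is in brackets. The points of the brighter GSTM3 probe set lie at -0.02 and 1.36 and those of the AKR1C3 probe set at -0.30 and -0.95, while no other probe set passes 0.70 in either direction.

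Among the transferases GSTM3, a mu-class enzyme, had the largest difference of the 9 genes, in B2. Its brighter probe set was at 76.8 in B1 and 200.3 in B2, against 77.9 in the untreated array. B1 and untreated nearly coincided, whereas B2 was higher by 1.36 on the log2 scale, and 1.35% of all genes were at least as far above untreated there. The mean difference of 0.67 had an SE of 0.71 (limma adjusted p = 0.969), and the SD of the cisplatin pair was 0.98. The dimmer probe set was at 25.1 in B1 and 27.3 in B2, against 30.5 in the untreated array. It was lower in both arrays, so the probe sets of GSTM3 differ in direction in B2. The dimmer one lay below the median intensity of each array and cannot be told from background without detection calls. The B2 value therefore rests on 1 probe set.

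GSTP1, the pi-class transferase that is abundant in squamous epithelia and many tumours, was read by 1 bright probe set at 2672 in B1 and 3143 in B2, against 2569.6 in the untreated array. Both cisplatin values were above the untreated one (log2 differences 0.06 and 0.29; mean 0.17, SE 0.22). GSTO1, an omega-class enzyme that acts as a thiol transferase and reduces dehydroascorbate, was also bright, at 4067 in B1 and 4740.4 in B2, against 4197 in the untreated array. Its second probe set was at 2928 and 3530.2, against 2936. Both GSTO1 probe sets were close to untreated in B1 (-0.05 and -0.00) and higher in B2 (0.18 and 0.27), as GSTP1 was.

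MGST1, a transferase of the endoplasmic reticulum and mitochondrial outer membrane, was dim throughout. Its brightest probe set was at 12.5 in B1 and 19.2 in B2, against 14.7 in the untreated array, and its 4 others did not exceed 14.3 on any array. All 5 lay below the median intensity of each array, and without detection calls they cannot be told from background. Their differences went in both directions, with 2 probe sets higher in both arrays, 1 lower in both and 2 on opposite sides.

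GPX2, the glutathione peroxidase of gastrointestinal epithelium, was at 788 in B1 and 717 in B2, against 627 in the untreated array. Both cisplatin values were above the untreated one (log2 0.33 and 0.19; mean 0.26, SE 0.20, 1.20-fold, limma adjusted p = 0.969). The second probe set, which was dim, was at 34.4 and 28.1, against 21.6, and was also higher in both (0.67 and 0.38). GPX2 was the only gene with several probe sets of which all were higher in both arrays. The second, however, lay below the median intensity of each array and cannot be told from background without detection calls. Over the 22 probe sets, 9 were higher in both arrays, 5 lower in both and 8 on opposite sides, and 11 lay below the median of their array on all 3 arrays. Of all 41091 probe sets, 38.0% were higher and 28.9% lower in both arrays.

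**Figure D3:**
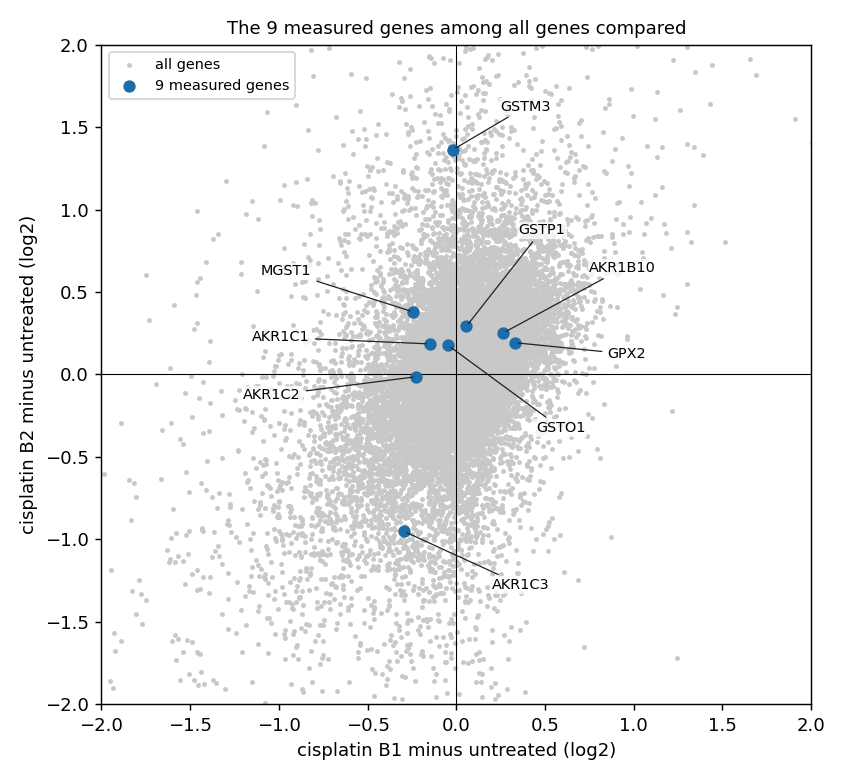
Log2 difference from the untreated array in cisplatin B1 (x axis) and B2 (y axis), with the 9 measured genes in blue among all 19775 genes (grey); both axes share the untreated array and stop at 2 in either direction, which leaves 267 genes outside. GSTM3 (1.36 in B2) and AKR1C3 (-0.95 in B2) lie apart from the other 7, which stay within 0.38 of 0 in both arrays.

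GSTM3 lay farthest from 0 in its pair of differences. The genes with the nearest pair, by Euclidean distance over the 2 differences among the 5309 genes whose mean log2 value was 8 or more, were SERPINE2 (-0.04 in B1 and 1.35 in B2), LINC00623 (-0.01 and 1.39), CSTA (0.01 and 1.33), RTL8C (-0.07 and 1.34) and DHCR7 (-0.05 and 1.41). With 3 arrays such a likeness is weak: 26 genes lay within a distance of 0.2.

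No measured gene of 3 lists of related enzymes passed 2-fold in either array. Many were dim, which limits the counts and medians below. A mean log2 value below 6 was found for 3 of 5 other aldo-keto reductases and 8 of 15 other transferases. It was found for 3 of 11 other peroxidases and peroxiredoxins, and for 9566 of all 19775 genes. Of 5 other aldo-keto reductases measured, 2 were higher and 2 lower in both arrays. The median difference was -0.04 for B1 and 0.06 for B2. Those lower in both, AKR1C4 and AKR1D1, did not exceed 6.6 and 5.0 on any array and cannot be told from background. AKR7A2, a reductase of succinic semialdehyde and aflatoxin aldehyde, was at 607 and 766, against 625 in the untreated array. Of 15 other glutathione transferases 7 were higher and 3 lower in both, with medians of 0.08 and 0.12. The kappa-class GSTK1 was at 471 and 445, against 478, and the membrane-bound MGST2 at 402 and 396, against 397. MGST3 was at 997 and 1144, against 1031. Larger differences were seen for GSTO2 (0.14 in B1 and 0.62 in B2) and GSTA4 (0.22 and 0.57). In the other direction GSTCD differed by -0.26 and -0.18. These genes were also named after their values were seen. Of 11 other peroxidases and peroxiredoxins 3 were higher and 4 lower in both, with medians of 0.04 and -0.21. GPX1, the major cytosolic glutathione peroxidase, differed by 0.15 in B1 and -0.34 in B2. GPX4, which reduces lipid hydroperoxides, differed by 0.04 and 0.31, and the peroxiredoxin PRDX1 by 0.09 and 0.18. The other peroxiredoxins measured, named after their values were seen, were below untreated in B2 by their brightest probe set: PRDX2 differed by -0.41, PRDX3 by -0.51, PRDX4 by -0.58 and PRDX6 by -0.16. With all probe sets of a gene averaged, the mean difference of B1 and B2 went from -0.23 to -0.04 for PRDX2 and from -0.29 to -0.10 for PRDX3. That of PRDX6 went from -0.06 to -0.11.

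Among genes of the NRF2 pathway and of glutathione synthesis, 4 of 27 differed by at least 2-fold in B2. Of the 27, 7 were higher and 9 lower in both arrays, none passed the limma test or the 2-fold rule in both arrays, and the medians were 0.04 in B1 and -0.26 in B2. NQO1, a quinone reductase, had an intensity of 2336 in B1 and 534 in B2, against 2170.4 in the untreated array (0.11 and -2.02). HMOX1, which breaks down haem, was at 1738 and 115, against 1528 (0.19 and -3.73). GCLM, the modifier subunit of the enzyme that starts glutathione synthesis, was at 2331 and 944, against 2345 (-0.01 and -1.31). In these genes B1 stayed close to untreated and B2 was far below, and with UGDH (0.35 and -1.14), named after its value was seen, they were the 4 of 27 beyond 2-fold in B2, all lower; over all genes 4.50% were lower by 2-fold in B2. All 3 probe sets of NQO1 and of GCLM had this pattern.

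The remaining 23 genes stayed within 2-fold in both arrays and went in both directions. The catalytic subunit gene GCLC differed by -0.06 in B1 and -0.89 in B2, and the thioredoxin reductase gene TXNRD1 by -0.32 and -0.72. The cystine transporter gene SLC7A11 differed by -0.59 and -0.92. Its other probe sets differed by -0.57 and -0.58 and by -0.29 and 0.24, so they disagree in B2. Named after their values were seen, the small MAF factor gene MAFF differed by 0.86 and 0.42, the pentose phosphate gene PGD by 0.09 and 0.49, and the exporter gene ABCC1 by -0.99 and -0.67. The gene of NRF2 itself, NFE2L2, was at 1935 and 1645, against 1968 (-0.02 and -0.26), and that of its inhibitor KEAP1 at 752 and 755, against 716 (0.07 and 0.08). Of the 9 detoxification genes, AKR1C3 was the one whose B2 value was also below both B1 and untreated. The other members ran from -0.01 to 1.36 in B2. The median of the 9 genes was 0.19 there, beside 0.05 over all genes. Whether the members differ from the pathway list was not tested.

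Aldehyde dehydrogenases, which oxidise the aldehydes that aldo-keto reductases reduce, had medians of 0.11 in B1 and -0.09 in B2 (11 genes, 5 higher and 2 lower in both arrays). ALDH1A3, a retinal dehydrogenase, was at 658 in B1 and 19.8 in B2, against 653 in the untreated array (0.01 and -5.04). Its B2 value lies below the array median and cannot be told from background, so the size of that difference is uncertain. Its second, dim probe set differed by 0.60 and 0.31. ALDH3A1 was at 42.6 and 42.1, against 41.7.

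**Figure D4:**
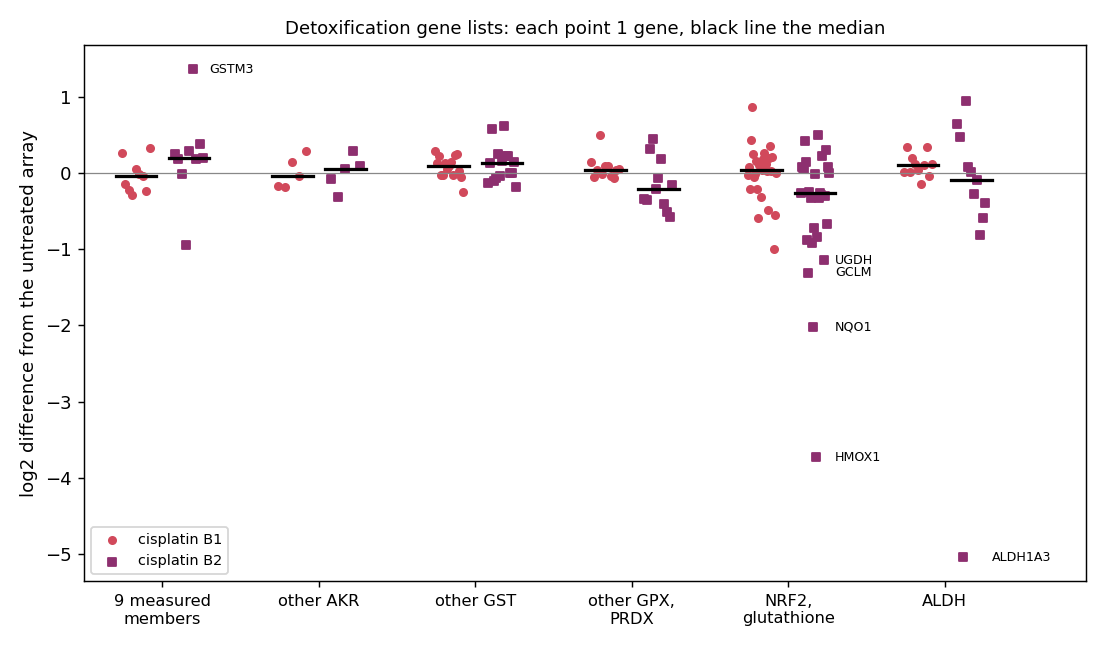
Log2 difference from the untreated array for each gene of the 9 measured members and 5 related lists, with cisplatin B1 as circles, cisplatin B2 as squares and the list median as a black line; genes beyond 1 in B2 are named. The B1 points lie within 1 of 0, and the B2 points reach from -5.04 (ALDH1A3, whose B2 value is dim and its size uncertain) to 1.36 (GSTM3).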

How the data were processed

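RNA of KYSE140 cells was measured on 3 Affymetrix arrays, from biotin-labelled cRNA, per the labels' protocols. The deposited values are linear intensities, made by the authors with RMA per the submitters' processing notes. The RMA version, the chip description file and any detection calls were not stated in the material available here. RMA corrects background and equalises the arrays, which can compress differences of dim probe sets. Intensities were turned into log2 values with no pseudocount. The 62 control probe sets were left out, and symbols were updated to GRCh38.p14 by gene number (19735 of 19775 genes matched). For each gene, the probe set brightest on average over the 3 arrays was used. The test was limma 3.58.1 (lmFit, eBayes; R 4.3.3), Benjamini-Hochberg adjusted over all genes at 0.05, with 1 residual and 2.01 prior degrees of freedom; it takes the spread of the untreated array to be that of the cisplatin arrays. On simulated data the fit returned the simulated differences on average but called none of the changed genes. The number of arrays limits the precision. The members with all their probe sets, a preset choice of genes from the related lists, and any list gene past 2-fold in both arrays were named; AKR1A1, of that choice, was not analysed here. Members and lists were chosen with earlier results of these data known. Alternatives are given in the closing section.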

Additional observations from a re-analysis of the deposited data

How the results depend on the processing

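Alternatives were eBayes with a trend or robust, a filter at a mean log2 value of 6, the mean of all probe sets of a gene, each probe set on its own, quantile normalization, median centring, a 1.5-fold rule, and each cisplatin array left out. No gene, member or other, passed the limma test under any alternative that allows one, and the adjusted p of the 9 members stayed at or above 0.959. The number of members lower in both arrays was 1 instead of 2 with the mean of all probe sets, with each probe set on its own (all of a gene's probe sets lower) and with quantile normalization, which also gave 4 instead of 3 members higher in both. MGST1, a dim gene, changed sign with quantile normalization (-0.010).

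Leaving out 1 cisplatin array gives values with no test. Without B1 and without B2, the members lower than untreated numbered 2 and 6, those higher 7 and 3, and those past 2-fold 1 and 0, so these counts rest on which array is used. Of all genes, 7.49% passed 2-fold in B2 and 1.75% in B1. The shares of all genes higher or lower in a single array were not counted, so the members' counts have no background to be read against. The median of the members was 0.19 and -0.05, beside 0.05 and 0.03 over all genes. GSTM3 was at 1.36 without B1 and -0.02 without B2, and with the mean of its probe sets at 0.23, so B2 and 1 probe set decide its value. The ranges were -0.95 to -0.30 for AKR1C3, -0.15 to 0.19 for AKR1C1, -0.22 to -0.01 for AKR1C2, 0.25 to 0.26 for AKR1B10, 0.06 to 0.29 for GSTP1, -0.05 to 0.18 for GSTO1, -0.24 to 0.38 for MGST1 and 0.19 to 0.33 for GPX2. The cause of these differences between arrays was not tested. No paired analysis was possible because there was only 1 untreated array for the 2 cisplatin arrays. Signal over background limits MGST1 and the other probe sets below the array median.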
